A study of Mus musculus with 2 samples.

Results

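4 genes of metal handling were followed in mouse CD8+ T cells: the metallothioneins Mt1 and Mt2, the metal-sensing transcription factor Mtf1 and the zinc exporter Slc30a1. They are 4 of the 27998 genes listed for both libraries, and were picked by name after earlier results of these data had been seen, so the difference between the libraries below is a description of them with no test. Values are unique molecular identifiers (UMIs, 1 per captured transcript) in cells with at least 500 genes and under 10% mitochondrially encoded UMIs. Levels are given as CPM, a gene's UMIs per 1000000 UMIs of a library's cells.

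The cells came from spleens and lymph nodes of 8 to 12 week old OT-I mice, whose T cells carry 1 transgenic receptor for the ovalbumin peptide SIINFEKL. Both groups were activated for 48 h with that peptide in medium with 100 U/ml interleukin-2, received expansion medium with interleukin-2, and were then held for 20 h in 11 mM glucose (control) or in 1 mM glucose (transient glucose restriction, TGR). The sample descriptions give 3 days of growth before the exposure, and the labels do not say whether glucose was restored before capture. Each condition had 1 10x Chromium library, so differences between conditions have no replicate check, and intervals below are 95% intervals that cover counting error only.

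Metallothioneins are small proteins whose many cysteines bind zinc and copper. When free zinc rises, MTF1 binds metal response elements in the promoters of Mt1, Mt2 and Slc30a1 and switches these genes on, so that zinc is bound inside the cell by metallothionein or moved out across the plasma membrane by SLC30A1. Glucocorticoids and oxidative stress are also known inducers of metallothioneins, and T cells need zinc for receptor signalling and proliferation.

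Mt2 (ENSMUSG00000031762) and Mt1 (ENSMUSG00000031765) lie on the plus strand of chromosome 8, at chr8:94172664-94173568 and chr8:94179082-94180327 of GRCm38, and 5513 bases separate them. Each has 3 exons. Mtf1 (ENSMUSG00000028890) has 11 exons and spans chr4:124802104-124849800, and Slc30a1 (ENSMUSG00000037434) has 2 exons at chr1:191906767-191913247. The stretches of 250 bases before the RefSeq starts of Mt2 and Mt1 are shown because both genes were higher in the TGR library and are known targets of 1 factor. Capitals mark the core of the metal response element, TGCACNC or TGCGCNC on either strand. Before Mt2, at chr8:94172368-94172617 (GRCm38.p6, plus strand), there were 3 matches, and before Mt1, at chr8:94178839-94179088, there was 1.
Mt2: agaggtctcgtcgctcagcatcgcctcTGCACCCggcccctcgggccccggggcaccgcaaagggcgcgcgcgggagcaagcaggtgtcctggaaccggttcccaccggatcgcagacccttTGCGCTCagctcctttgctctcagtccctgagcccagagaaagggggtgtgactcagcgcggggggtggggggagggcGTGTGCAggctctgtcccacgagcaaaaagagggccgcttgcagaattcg
Mt1: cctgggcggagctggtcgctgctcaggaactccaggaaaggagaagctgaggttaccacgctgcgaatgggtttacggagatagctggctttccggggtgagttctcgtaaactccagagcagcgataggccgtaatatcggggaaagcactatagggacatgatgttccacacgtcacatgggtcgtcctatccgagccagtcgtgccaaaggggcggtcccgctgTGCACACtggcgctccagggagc
Of 32851 RefSeq windows of this length, from 27025 genes, 21.4% held at least 1 match and 1.26% held 3 or more. The window of Slc30a1 held 1 match and that of Mtf1 held 0. In GENCODE M21 the first exon of both metallothioneins starts before a TATAA, at chr8:94172753 in Mt2 and chr8:94179210 in Mt1, so further matches fall in sequence annotated as exon 1. Before that TATAA, exon 1 of Mt2 held 3 matches and exon 1 of Mt1 held 4, here with the capitals as above and positions chr8:94172676-94172701, chr8:94172729-94172735, chr8:94179091-94179115 and chr8:94179173-94179193.
Mt2, first pair: GTGTGCAggcggcgggggcGCGTGCA
Mt2, single: TGCGCTC
Mt1, first pair: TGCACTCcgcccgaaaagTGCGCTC
Mt1, second pair: GGGTGCAaacccttTGCGCCC
A match is a stretch of letters and not a measured binding site. The transcripts of Mt1 and Mt2 share 0 stretches of 31 bases, so a read of that length cannot match both exactly.

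The control library held 3127 kept cells with a median of 4030 UMIs, and the TGR library held 2546 with a median of 6265.5. All 209 barcodes removed from the control and both of the 2 removed from TGR exceeded the mitochondrial limit. Per cell, the median share of UMIs from ribosomal protein genes was 37.6% in the control and 46.8% in TGR. The libraries shared 11 barcode sequences. At least 2 of 6 CD8 T cell markers were found in 98.3% of control and 99.5% of TGR cells, with Cd8b1 in 81.6% and 89.8%. Cells with 2 or more B cell markers numbered 8 and 9, those with 2 or more innate-like markers 24 and 16, and no cell had 2 or more myeloid, dendritic, neutrophil, erythroid or stromal markers. No cell type that should lack Mt1 or Mt2 was present to measure free RNA in the droplets.

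Mt1 gave 2680 control UMIs and 8505 TGR UMIs, that is 182 and 432 CPM. Its level was 2.37 times higher in TGR (interval 2.27 to 2.48, log2 ratio 1.25). Mt2 gave 565 and 4844 UMIs, or 38.4 and 246 CPM, and was 6.41 times higher in TGR (interval 5.88 to 7.01, log2 ratio 2.68). Both metallothioneins were therefore more abundant in the glucose-restricted library, and the gap was wider for Mt2. By ratio, Mt2 stood at rank 15 and Mt1 at rank 129 of 6667 genes scored, for which 1 of the libraries had to reach 10 CPM. A gene was called higher or lower at 1.5-fold or more with an interval that excluded 1. By that rule 9.33% of scored genes were higher in TGR and 21.8% were lower, with a median log2 ratio of -0.16. The rule that chose the members used this contrast, so nothing is read from these calls. Scaling to totals without ribosomal protein and mitochondrial genes moved that median by 0.23 to 0.08 on the log2 scale, and 58.7% of calls were then in the higher direction in place of 29.9%. Mt1 and Mt2 were 2.79 and 7.53 times higher under that scaling.

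The mix of the pair differed between the libraries. The control library held 4.74 Mt1 UMIs for every Mt2 UMI, and the TGR library held 1.76. This ratio does not depend on how the libraries are scaled. Together the pair reached 220 CPM in the control and 678 CPM in TGR, a ratio of 3.08 (2.96 to 3.20). Mt3, a member of the family best known from brain, gave 11 UMIs in the control and 44 in TGR, and Mt4, known from squamous epithelium, gave 0 in both. All 11 Mt3-positive control cells and 35 of 37 Mt3-positive TGR cells also held an Mt1 or Mt2 UMI, against 36.8% and 58.5% of the other cells. The Mt3-positive cells were deeper, with medians of 6273 against 4027.5 UMIs in the control and 12051 against 6192 in TGR, and the part of depth in this overlap was not tested.

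Mtf1, which encodes the zinc sensor that drives the metallothioneins, went the other way. It gave 326 UMIs in the control and 267 in TGR, or 22.1 and 13.6 CPM, a level 1.63-fold lower in TGR (1.38 to 1.93). Under totals without ribosomal protein and mitochondrial genes the difference narrowed to 1.39-fold lower, short of the call. The Mtf1 locus overlaps 1110065P20Rik on the opposite strand, which gave 394 and 552 UMIs (26.7 and 28.0 CPM), and whether counting used strand is not given in the sources used here. Mt2 overlaps the antisense gene Gm45774, which is not among the listed genes, and Slc30a1 overlaps the antisense gene 1700034H15Rik, which gave 1 and 4 UMIs. Only if counting ignored strand would reads from the overlapped stretches be open to either gene, and this was not tested. Slc30a1, the exporter of the plasma membrane, gave only 22 UMIs in the control and 49 in TGR. Its levels of 1.49 and 2.49 CPM lie below the scoring limit, and its ratio of 1.65 has an interval from 0.988 to 2.89. Under the other scalings the log2 ratio of Slc30a1 was 0.77 (0.03 to 1.57) with TMM factors, 0.74 (0.0015 to 1.55) with DESeq2 size factors and 0.95 (0.22 to 1.76) with totals without ribosomal protein and mitochondrial genes, so whether its interval includes no difference depends on the scaling.

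None of the 7 other zinc transporters that could be scored was called higher in TGR. Over all scored genes 9.33% were called higher and 21.8% lower, so 0 of 7 is not read as a trait of these genes. Of 10 genes of the Slc30 family, which move zinc out of the cytosol, 7 had a UMI and 3 were scored. Among these 0 were called higher and 1 lower. The lower one was Slc30a4, an exporter of endosomes and secretory vesicles, at 18.8 CPM in the control and 10.1 in TGR (1.86-fold lower). Slc30a7, which supplies the Golgi, stood at 14.7 and 13.1 CPM, and Slc30a9, a mitochondrial zinc transporter, at 18.7 and 17.2 CPM. The median log2 ratio of the 3 was -0.16, the same as over all scored genes to 2 decimals. Under totals without ribosomal protein and mitochondrial genes it was 0.07, where all scored genes had 0.08.

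Of 14 genes of the Slc39 family, which bring zinc into the cytosol, 12 had a UMI and 4 were scored. Among these 4, 0 were called higher and 2 lower, beside 9.33% higher and 21.8% lower over all scored genes. Slc39a6, an importer of the plasma membrane, stood at 32.6 CPM in the control and 20.5 in TGR, 1.59-fold lower. Slc39a7, which releases zinc from the endoplasmic reticulum, stood at 27.6 and 17.2 CPM, 1.61-fold lower. The plasma membrane importers Slc39a1, at 19.8 and 19.5 CPM, and Slc39a3, at 14.3 and 14.7 CPM, had intervals of the ratio that include 1. The median of the 4 was -0.35 on the log2 scale. Without ribosomal protein and mitochondrial genes in the totals, Slc39a6 and Slc39a7 were 1.36-fold and 1.37-fold lower and lost the call, while Slc30a4 kept it at 1.58-fold lower. Below the scoring limit, Slc39a10 gave 116 control and 52 TGR UMIs, 2.96-fold lower (interval of the TGR to control ratio 0.237 to 0.469), and Slc39a8 gave 82 and 46 UMIs, 2.37-fold lower. Slc39a14, with 112 and 99 UMIs, and Slc30a6, with 96 and 84, were 1.51-fold and 1.52-fold lower. Slc39a13 went the other way, with 27 control and 59 TGR UMIs and a ratio of 1.62 (1.02 to 2.68). These are the unscored transporters whose interval excluded 1 under the main scaling, and they are named after their values were seen. Whether their intervals exclude 1 under the other scalings was not tested. Slc39a10 is known as a gene that MTF1 holds down when zinc is high. Whether zinc or MTF1 had a part in its level here was not tested.

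**Figure D1:**
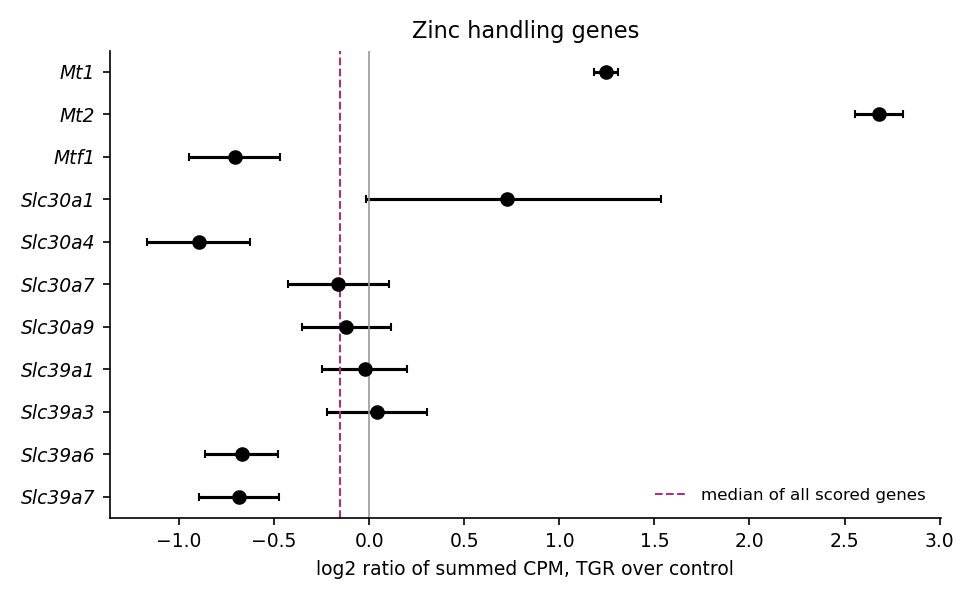
Log2 ratio of summed CPM, TGR over control, for the 4 members and the scored zinc transporters. Points are the ratio of 1 library to 1 library, bars its 95% counting interval, and the dashed line is the median of all scored genes at -0.16. Mt1 (1.25) and Mt2 (2.68) lie to the right, Mtf1 (-0.71), Slc30a4, Slc39a6 and Slc39a7 lie to the left, and the bar of Slc30a1 crosses 0.

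Copper, which metallothioneins also bind, was looked at in the same way. Of 15 copper handling genes 8 were scored, 0 were called higher and 4 lower, with a median log2 ratio of -0.62, against 9.33% higher, 21.8% lower and a median of -0.16 over all scored genes. Slc31a1, the copper importer of the plasma membrane, stood at 15.7 CPM in the control and 7.41 in TGR, 2.11-fold lower. Atox1, the copper chaperone of the secretory pathway, stood at 265 and 143 CPM, 1.86-fold lower. Sod1, the copper and zinc superoxide dismutase, stood at 126 and 124 CPM. The other called genes were Commd1 and Cox19. Both lost the call under totals without ribosomal protein and mitochondrial genes, at 1.47-fold and 1.38-fold lower.

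Genes of glucocorticoid, antioxidant and other stress programmes moved in differing directions beside Mt1 and Mt2, and their part in the metallothionein levels was not tested. Over all 6667 scored genes 9.33% were called higher and 21.8% lower. Of 7 scored glucocorticoid-responsive genes 4 were called higher and 0 lower. Tsc22d3, a glucocorticoid-induced leucine zipper protein, stood at 11.8 CPM in the control and 50.5 in TGR, while Fkbp5, a chaperone of the glucocorticoid receptor pathway, stood at 37.3 and 27.5. Of 15 scored NRF2 and antioxidant genes 5 were called higher and 4 lower, with a median log2 ratio of -0.16. The higher ones were Hmox1, Gclc, Gclm, Sqstm1 and Ftl1, and the lower ones Txn1, Prdx1, Sod2 and Gpx1. Hmox1, the heme oxygenase that is often induced together with metallothioneins, stood at 1.02 and 12.3 CPM. Of 18 scored targets of ATF4, the factor of the amino acid and unfolded protein response, 13 were called higher and 0 lower. Its target Ddit3, which encodes CHOP, stood at 12.6 and 267 CPM. Of 12 scored heat shock genes 2 were called higher and 4 lower, and of 13 scored hypoxia targets outside glycolysis 4 higher and 1 lower. Under totals without ribosomal protein and mitochondrial genes, 6 glucocorticoid-responsive genes were called higher, 3 NRF2 and antioxidant genes lower and 2 heat shock genes lower, and the other counts stayed as given. Of all 6667 scored genes 1197 were then called higher and 842 lower.

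The next values concern spread between cells. Cells of the TGR library were deeper, so each cell was thinned at random to 1500 UMIs. This dropped 91 control cells and 0 TGR cells for lack of UMIs. Before thinning, an Mt1 UMI was found in 34.9% of control and 54.8% of TGR cells, and an Mt2 UMI in 11.1% and 38.8%. At equal depth the shares were 18.0% (16.6 to 19.4) and 28.0% (26.3 to 29.8) for Mt1. For Mt2 they were 4.94% (4.20 to 5.77) in the control and 17.0% (15.5 to 18.5) in TGR. At least 1 UMI of either gene was left in 20.1% of thinned control and 34.0% of thinned TGR cells. For comparison, Cd74, a B cell and antigen presentation gene, was found in 0.494% and 0.628% of thinned cells. Cd79b, another B cell marker, was found in 2.87% of thinned control and 1.53% of thinned TGR cells. The other matched B cell markers were found in at most 0.0988%.

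Positive cells also held more metallothionein. Thinned cells with an Mt1 UMI averaged 1.40 Mt1 UMIs in the control and 2.199 in TGR, and those with an Mt2 UMI averaged 1.14 and 2.07 Mt2 UMIs. The TGR library thus had both more positive cells and more UMIs per positive cell. At 1 Mt1 UMI the libraries held close shares of cells, 13.1% of the control and 14.9% of TGR. At 3 to 4 Mt1 UMIs the shares were 1.22% and 4.40%. At 5 to 9 they were 0.231% and 1.49%, and at 10 or more 0 of 3036 control cells (which allows up to 0.0988%) against 0.550% of TGR cells.

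**Figure D2:**
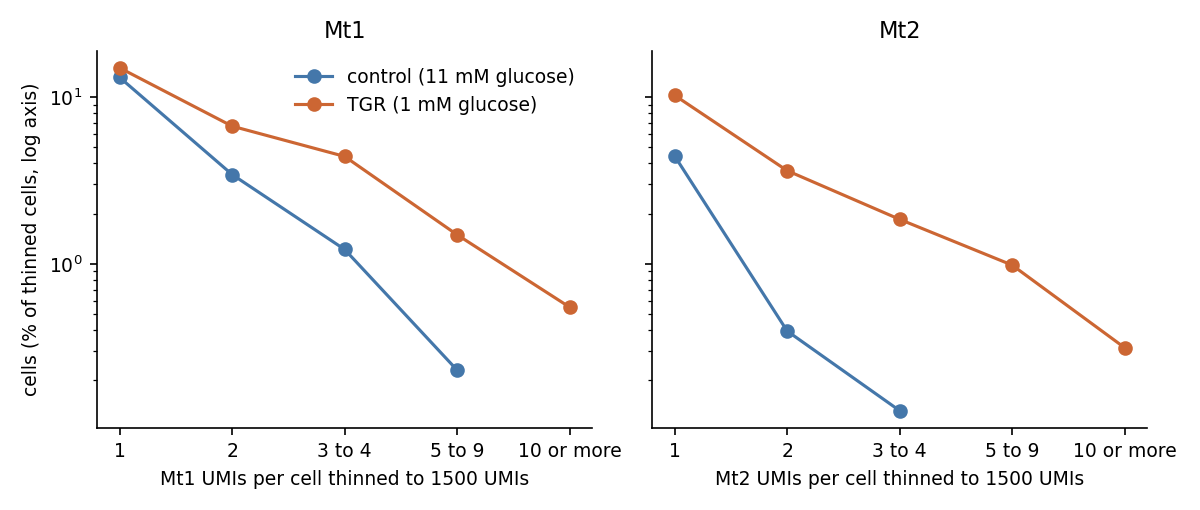
Share of thinned cells (%, log axis) by number of Mt1 UMIs (left) or Mt2 UMIs (right) per cell, for 3036 control and 2546 TGR cells. A class with 0 cells has no point. The lines start close together at 1 Mt1 UMI and part as the count grows, and only TGR has cells with 10 or more.

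Single cells reached very different levels. The most metallothionein-rich control cell held 24 UMIs of the pair, 14 of Mt1 and 10 of Mt2, or 0.342% of its 7024 UMIs. The richest TGR cell held 259, of which 173 were Mt1 and 86 Mt2, or 3.47% of its 7467 UMIs. Its total was not far above the library's median of 6265.5 UMIs. After thinning, the highest control cell had 8 UMIs of the pair, and 39 TGR cells (1.53%) lay above it, up to 61. Before thinning, the top 1% of cells held 13.6% of all metallothionein UMIs in the control (31 cells) and 20.1% in TGR (25 cells). The top 10% of cells held 60.15% and 60.03%, and the top 20% held 82.7% in the control and 78.7% in TGR. In thinned cells the top 1% held 15.3% in the control and 22.7% in TGR, and the top 10% held 67.2% and 66.6%. The topmost cells thus held a larger part in TGR either way. Beyond the top 10%, before thinning, the larger part was in the control, where fewer cells had any UMI of the pair.

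The Fano factor, variance over mean, is 1 for pure counting noise and grows with the mean of a variable gene. For the summed pair in thinned cells it was 1.85 in the control and 8.75 in TGR. Mt1 had a Fano factor of 1.62 in the control, rank 18 of 3010 genes with a mean of at least 0.05, and of 5.29 in TGR, rank 2 of 2737. Mt2 had 1.26 (rank 82) and 4.57 (rank 4), while the median gene had 1.02 in both libraries. Mt1 and Mt2 were thus among the most unevenly spread genes of the TGR cells. Mtf1, with 0.983 and 1.06, and Slc30a1, with 0.998 and 0.996, showed no spread beyond counting noise at their low means. Leaving out the 1% of TGR cells richest in metallothionein brought the Fano factor of the pair to 4.19, so its size rests largely on these 25 cells.

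Mt1 and Mt2 varied together from cell to cell. On log2(UMIs + 1) of thinned cells Pearson's r was 0.264 (rho 0.236) over 3036 control cells and 0.585 (rho 0.431) over 2546 TGR cells. Both genes were found in 84 control cells, where unrelated detection would give 26.9, and in 280 TGR cells, where it would give 121. Among 7223 control and 7352 TGR genes found in at least 1% of thinned cells, Mt2 was the gene most correlated with Mt1 in each library, and Mt1 the one most correlated with Mt2. The next partner of Mt1 was Batf3 at 0.144 in the control and Rps2 at 0.125 in TGR. Cells of a library share its preparation, low counts hold r down, and the 2 libraries differ in mean level, so the size of r is not compared between them. The pairs of a metallothionein with Mtf1 or Slc30a1 had r between -0.005 and 0.061. Mt1 and Mtf1 were both found in 21 control cells (19.4 if unrelated) and 18 TGR cells (14.0 if unrelated), and Mt2 and Mtf1 in 6 (5.34) and 9 (8.48). Slc30a1 was left in only 6 thinned control and 11 thinned TGR cells. Of the 11 TGR cells 8 also held Mt1, where unrelated detection would give 3.08, and 5 held Mt2, where it would give 1.87. In the control it met Mt1 in 1 cell (1.08 if unrelated) and Mt2 in 1 (0.296). These counts are too small to say whether Slc30a1 followed the metallothioneins.

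**Figure D3:**
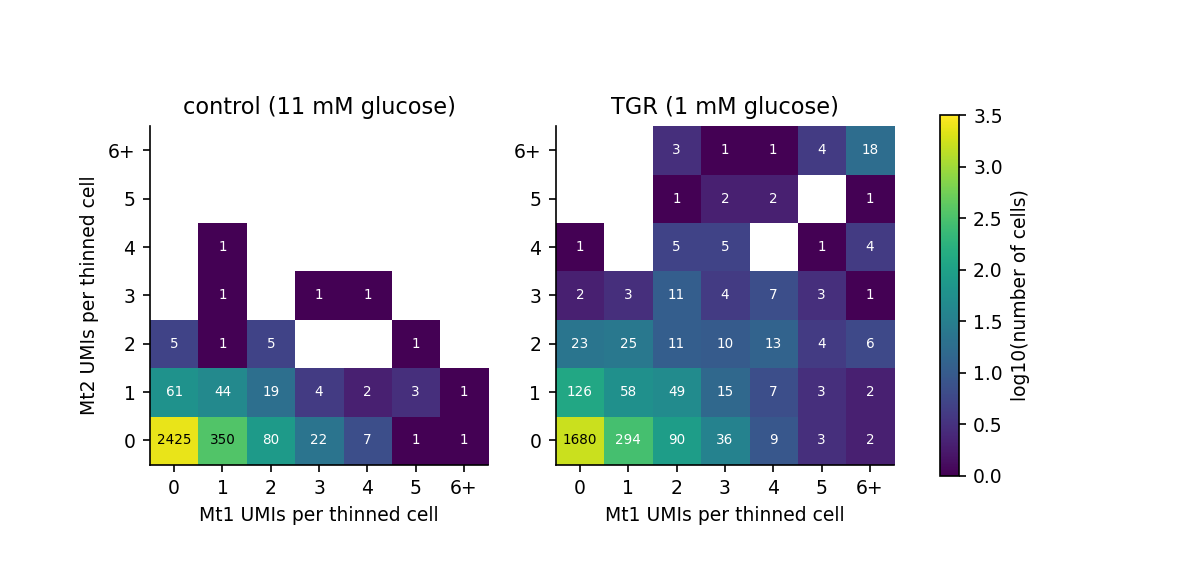
Number of thinned cells with each combination of Mt1 UMIs (horizontal axis) and Mt2 UMIs (vertical axis), 6+ standing for 6 or more. Colour is the log10 number of cells and blank squares hold 0 cells. The control cells gather at the lower left, with 84 cells positive for both, and the TGR cells extend to the upper right, where 18 cells hold 6 or more of each.

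The pairing can be read from detection rates as well. Among control cells with 0, 1, 2 and 3 or more Mt1 UMIs, Mt2 was found in 2.65%, 11.8%, 23.1% and 29.5%. In TGR cells the same classes gave 8.30%, 22.6%, 47.1% and 69.5%. At every Mt1 count, Mt2 was thus found more often in TGR cells than in control cells. Matched on the summed count instead, the Mt2 share of metallothionein UMIs was 14.8% in control and 30% in TGR cells with 1 such UMI. It was 20.9% and 30.4% at 2 UMIs, 19.6% and 31.5% at 3 to 4, and 25% (15.5 to 36.6) and 40.0% (36.0 to 44.1) at 5 to 9. Cells with 10 or more existed in TGR alone and had 43.9% Mt2 (39.9 to 47.9). The intervals of the libraries overlapped at 2 UMIs and, by a narrow margin, at 5 to 9. The higher Mt2 share of TGR cells was therefore present at the lowest metallothionein counts too, and within TGR it was higher in richer cells. These classes of UMIs were set after the data had been seen.

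**Figure D4:**
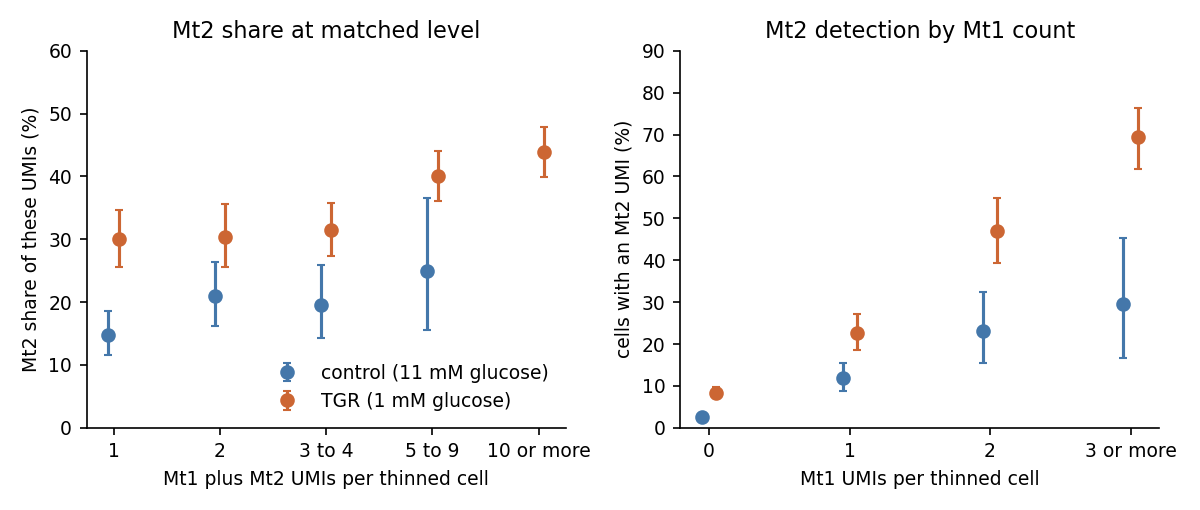
Left, Mt2 share (%) of the Mt1 plus Mt2 UMIs of thinned cells, by the number of such UMIs per cell. Right, share of thinned cells (%) with an Mt2 UMI, by Mt1 UMIs per cell. Bars are exact 95% binomial intervals, and TGR lies above the control in each class that both have, from 30% against 14.8% at 1 UMI.

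The libraries also differed in called cell cycle phase, so the members were read within phases. Calls on thinned cells put 85.0% of control and 41.0% of TGR cells in G2/M and 7.28% and 52.1% in G1. These calls score the RNA of phase genes and do not measure division. The summed pair was 2.63 times higher in TGR among G1 cells and 3.01 times among G2/M cells. Among S cells, which number 234 and 176, it was 1.83 times higher. There Mt1 was 1.42 times higher (1.20 to 1.68), short of the call, and Mt2 was 3.94 times higher (2.83 to 5.70). The direction of Mt1 and Mt2 was thus the same in each phase, with a smaller gap in S. Within TGR the summed pair stood at 747 CPM in G1, 462 in S and 645 in G2/M. Mtf1 was 1.71-fold, 1.66-fold and 1.66-fold lower in TGR in G1, S and G2/M, although the interval in S crossed 1.

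Depth per cell was treated likewise. Among cells with under 3000 UMIs, of which TGR had only 103, the summed pair was 4.20 times higher in TGR, and among those with over 6000 it was 3.14 times higher. At 3000 to 6000 UMIs it was 2.06 times higher, with Mt1 at 1.63 and Mt2 at 4.14 times. In that middle band the TGR cells stood at 445 CPM of the pair, against 701 CPM below it and 758 CPM above it. Control cells had 166, 216 and 241 CPM across the same bands. TGR cells exceeded control cells in Mt1 and Mt2 in each band. Without the 1% of cells richest in metallothionein in each library the ratio of the pair was 2.84.

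**Figure D5:**
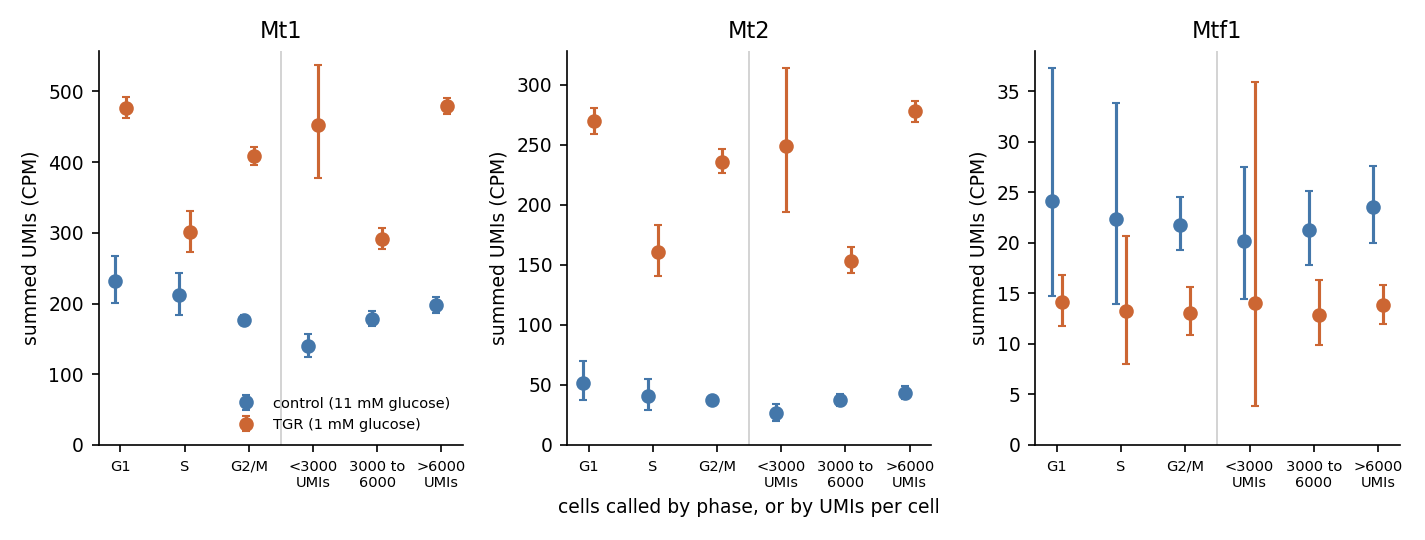
Summed UMIs (CPM) of Mt1, Mt2 and Mtf1 in cells grouped by called phase or by UMIs per cell, control and TGR. Points are 1 library's cells and bars are 95% Poisson counting intervals. Mt1 and Mt2 are higher in TGR in each class, and Mtf1 is lower in each, with wide bars where few cells fall.

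Other genes were only weakly related to metallothionein level across cells. Among genes found in at least 10% of thinned cells, the highest correlations with Mt1 plus Mt2 in the control included those of Gzmb (r 0.120), Rpl41, Rps27l, Odc1, Fth1, Rps2, Set, Ctla2a and Rplp1, over 1585 genes. In TGR they were those of Ctla2a (0.133), Hspe1, Aldoa, Rps2, Chchd10, Ftl1, Rpl22l1, Rpl41, Rpl14 and Tnfrsf9, over 1346 genes. The lowest was B2m in the control (-0.139) and mt-Co3 in TGR (-0.176). At correlations this low the order depends on the random draw of the thinning and is no finding.

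Cells with 3 or more thinned metallothionein UMIs were set against cells with 0 within each library, a limit chosen after the data had been seen. In TGR these were 275 and 1680 cells, with 171 further cells at 2 UMIs, just below the limit. The rich cells were deeper (medians 6949 and 5777.5 UMIs) and more often called G1 (61.1% and 50.6%), and the part of either in the values below was not tested. Of 6526 scored genes 2.31% were called higher and 4.44% lower in the rich cells. Mtf1 stood at 14.9 CPM in rich cells and 12.1 in cells without metallothionein, a ratio of 1.23 (0.816 to 1.82). Slc30a1 gave 6 UMIs in rich cells and 24 in the others, a ratio of 1.41 (0.475 to 3.56). None of the scored zinc transporters, 3 exporters and 4 importers, was called in either direction.

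The genes of the glucocorticoid and stress programmes split in this comparison within TGR. There 2.31% of all 6526 scored genes were called higher in the rich cells and 4.44% lower. Ddit3 stood at 266 CPM in metallothionein-rich cells and 271 in cells without, with a ratio of 0.984 (0.899 to 1.08). Tsc22d3 stood at 50.4 and 51.8 CPM, with a ratio of 0.973 (0.786 to 1.20). Of the 19 scored ATF4 targets, Ddit3 among them, 4 were called higher in the rich cells and 0 lower: Asns (1.54 times), Sesn2 (1.55), Stc2 (2.24) and Ddit4. In the control 4 of 17 were called higher, among them Asns on only 10 UMIs in rich cells. Of 7 scored glucocorticoid-responsive genes in TGR 1 was called higher, again Ddit4. Of 14 scored hypoxia targets outside glycolysis in TGR 6 were called higher in the rich cells and 0 lower. The higher ones were Bnip3, Egln3, Ankrd37, P4ha2, Ddit4 and Bhlhe40. Ddit4, an inhibitor of mTORC1 induced by several stresses and a member of the hypoxia, ATF4 and glucocorticoid lists, stood at 93.3 and 42.7 CPM and was found in 40.0% of rich cells and 23.2% of the others. Bhlhe40, a transcription factor of activated T cells, was 2.18 times higher in rich cells of TGR (1.73 to 2.74). In the control Bhlhe40 was 2.89 times higher (1.46 to 5.25), on only 12 UMIs in rich cells. There 71 rich cells were set against 2425, and 4.45% of 6851 scored genes were called higher and 3.21% lower. Of 13 scored hypoxia targets outside glycolysis in the control 4 were called higher, Bnip3, Egln1, Egln3 and Bhlhe40, and 0 lower. Back in TGR, of 15 scored NRF2 and antioxidant genes 0 were called higher in the rich cells and 3 lower, Gclc, Txnrd1 and Cat. Of 12 scored heat shock genes in TGR 3 were called higher. They were led by Hspa1a, an inducible HSP70, at 61.1 CPM in rich cells and 9.86 in the others. Hspa1a was found in only 19 rich and 19 other cells, 6.91% and 1.13%, and 1 cell held 20.6% of its UMIs among the rich cells. In the control library Hspa1a gave 1 UMI among the cells without metallothionein and 0 among the rich ones.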

How the data were processed

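The authors deposited raw UMI counts per gene and cell barcode, whole numbers with no normalization, per the values in the files. The submitters' processing notes name Cell Ranger 2.2, Seurat 3 and the mm10 build, and the role of each, barcode filters and use of strand are not given in the sources used here. Libraries used 10x v2 3' chemistry, per the labels' protocols, and about 5000 cells were loaded with 3000 recovered on average, against 3336 control and 2548 TGR barcodes deposited. The members and gene lists were chosen with earlier results of these data known.

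Cells were kept at 500 genes or more and under 10% mitochondrial UMIs. Counts were summed per library and scaled to CPM, and ratios had 0.5 UMI added per library, scaled by its total. Ratio intervals are exact Clopper-Pearson intervals of the split of UMIs, shares have exact binomial intervals, and a count of 0 allows up to 3 counts. Conditions were not tested, as each had 1 library. Genes were scored at 10 CPM in either library. Shares, Fano factors, correlations and phase calls (scanpy 1.11.5) used cells thinned to 1500 UMIs, with numpy 2.4.6 and Python 3.11.15. Doublets were not called and stayed in. The text names the 4 members, scored zinc transporters, the genes of each list with the largest ratio or highest level, and the 10 genes per library most correlated with Mt1 plus Mt2, of which 1 in the control is not reported here. Genes named in the comparison of metallothionein-rich cells, the called NRF2 and antioxidant genes, Commd1, Cox19 and Fkbp5 were chosen after their values were seen. Motifs were searched in RefSeq windows and GENCODE M21 first exons. TMM factors came from edgeR 4.0.16 and size factors from DESeq2 1.42.0, for scaling alone. The steps were tested on simulated data.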

Additional observations from a re-analysis of the deposited data

How the results depend on the processing

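No paired analysis was possible because each condition had 1 library, and for the same reason no library could be left out. Of 64 alternative values of the main measures 35 stayed within their limits and 29 moved. A change of direction was looked for in ratios alone, and all 16 alternatives of the summed metallothionein ratio stayed higher in TGR. The median log2 ratio of scored genes, -0.16, did change sign. It became 0.08 with totals without ribosomal protein and mitochondrial genes and 0.02 with no limit on low values. The log2 ratio of the summed metallothioneins, 1.62, became 1.85 with totals without ribosomal protein and mitochondrial genes, 1.69 without the 5% of cells with the most UMIs, 1.51 without the 1% richest in metallothionein, and 1.68 as a mean of each cell's CPM. It became 1.39 in G1 cells, 0.87 in S cells, 2.07 under 3000 UMIs and 1.04 at 3000 to 6000 UMIs. Over 16 alternatives the log2 ratio of Mt1 lay between 0.51 and 1.69, that of Mt2 between 1.98 and 3.22, that of Mtf1 between -0.77 and -0.47 and that of Slc30a1, on 0 to 49 UMIs per library, between 0.04 and 3.48. Mt1 reached 1.5-fold in 15 of them, Mt2 in 16 and Mtf1 in 14.

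Genes called higher, 622, numbered 1658 with no limit on low values, 168 at 50 CPM and 1197 without ribosomal protein and mitochondrial genes in the totals. Genes called lower, 1455, numbered 789 at 50 CPM and 842 under that scaling. Depth sets the measures per cell. With no thinning the shares of cells with Mt1 or Mt2 were 37.1% and 59.0%, the Fano factors 4.50 and 34.9, and r 0.488 and 0.797 in control and TGR. At 3000 UMIs the shares were 32.3% and 47.2%, r was 0.359 and 0.654, and the TGR Fano factor 15.001. In control G1 cells the share was 22.2% and r 0.373. Without the richest 1% of cells r was 0.208 in the control and 0.495 in TGR, and the TGR Fano factor was 4.19. Thinning lowers counts by construction, and leaving out the richest 1% takes away the cells with the highest metallothionein counts by construction. The cause of the other moves was not tested.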

Other observations

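The 209 control barcodes removed for mitochondrial UMIs held 24 Mt1, 11 Mt2 and 19 Mtf1 UMIs of 373702, or 64.2, 29.4 and 50.8 CPM. Mt1 was therefore lower and Mtf1 higher in them than in the kept control cells, with intervals of 41.1 to 95.6 CPM for Mt1 and 30.6 to 79.4 CPM for Mtf1.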
